A study of Homo sapiens with 12 samples.

Results

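K562 cells that had spent 8 h in dasatinib are compared here with K562 cells that had spent 4 h in it. The comparison uses the 6 arrays whose labels give those times, 3 at each, out of 12 in the study, and covers every gene that could be measured. K562 is an established line from a patient with chronic myeloid leukaemia, carries the BCR-ABL1 fusion kinase and expresses many genes of the red cell lineage. Dasatinib is a tyrosine kinase inhibitor of ABL and of SRC family kinases. The study also holds 3 arrays at 24 h of dasatinib and 3 at 24 h of the vehicle, dimethyl sulphoxide (DMSO).

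All cells were propagated in RPMI medium with 10% fetal bovine serum and moved to medium with 0.1% serum for treatment. The 4 h, 8 h and 24 h dasatinib groups received 100 nM of the drug, and the vehicle group received 0.2% DMSO for 24 h. The vehicle has no arrays at 4 h or 8 h, so a longer time in the drug and a longer time in low serum cannot be told apart. The labels number 3 replicates a group without saying whether they were separate cultures, so the p-values measure the spread between these samples, which may be technical.

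BCR-ABL1 signals through the RAS-ERK cascade, STAT5 and the PI3K-AKT pathway, and these raise growth genes such as those for ribosome assembly and hold back FOXO transcription factors. ATF4 is a transcription factor made when amino acids run short or when the endoplasmic reticulum is stressed, and it turns on amino acid transporters and enzymes of serine and one-carbon metabolism. Red cell precursors make haem in a chain of enzymes that opens with ALAS2 and pack it into globins, under transcription factors such as GATA1, KLF1, TAL1, LMO2 and NFE2. K562 cells can be pushed along this path when BCR-ABL1 is inhibited.

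The 6 arrays had median signals of 134.2 to 160 and detected 17175 to 18416 of 47314 probes at a detection p under 0.05. Normalized levels correlated at 0.9892 to 0.9915 (Pearson r across probes) within a time and at 0.9811 to 0.9851 between the times. On the first principal component of all 12 arrays, which held 58.6% of the variance, the 4 h arrays lay at -17.9 to -14.9 and the 8 h arrays at 0.57 to 4.87. The DMSO arrays lay at -33.58 to -31.39 and the 24 h dasatinib arrays at 44.84 to 45.7, so the 8 h arrays came between the 4 h and the 24 h arrays. GATA1, TAL1, KLF1, HBG1, HBE1 and HBZ, which mark K562 cells, were detected on all 6 arrays. Of 14 granulocyte and monocyte markers on the array, 3 were detected on all arrays at both times, and their summed signal was 910 to 1050 at 4 h and 853 to 922 at 8 h. Of 14 lymphoid markers, 1 was detected on all arrays at 4 h and 2 at 8 h, with sums of 2380 to 2550 and 1750 to 1970. CD3D, a T cell receptor subunit on that list, fell by 0.69 ± 0.12 (log2, SE, 3 arrays a group, adjusted p = 0.0036). Of 13 fibroblast and epithelial markers, 3 and then 5 were detected, with sums of 9860 to 12100 and 10700 to 12000. The part of these markers in the results was not tested. These are bulk RNA measurements, in which fewer cells of a type and less RNA per cell cannot be told apart.

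Of 10208 genes, 1151 (11.3%) passed at an adjusted p under 0.05, of which 610 (5.98%) were higher at 8 h and 541 (5.3%) were lower. A change of at least 2-fold was reached by 110 of them (1.08%), 53 higher (0.519%) and 57 lower (0.558%). The median absolute log2 difference of the 1151 genes was 0.57, and the median difference of all genes was 0.02. For 3080 genes (30.2%) the 3 arrays of one time lay wholly above the 3 of the other. The number of called genes depended on single arrays: it was 762 without array C of the 4 h group, 724 without array A of the 8 h group and 691 without array B of the 8 h group. With arrays scaled to a common median in place of quantile normalization it was 384, split into 126 higher and 258 lower, and the median of all genes moved to -0.09.

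**Figure D1:**
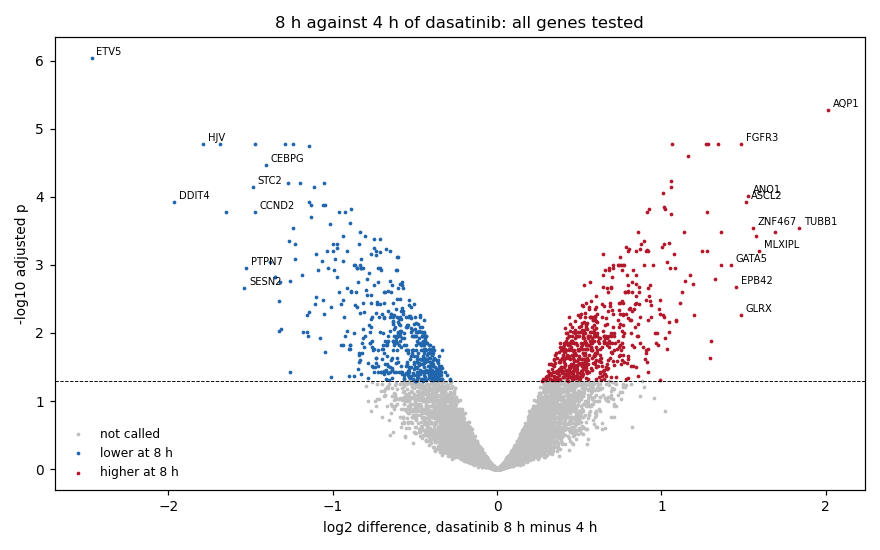
Each point is 1 of 10208 genes, with the log2 difference of 8 h minus 4 h of dasatinib on the x axis and -log10 of the adjusted p on the y axis; the dashed line marks 0.05. Red points are the 610 genes called higher at 8 h and blue points the 541 called lower, with ETV5 and DDIT4 farthest to the left and AQP1 and TUBB1 farthest to the right; ETV5 at 8 h and AQP1 at 4 h were not detected, so their fitted differences are not measured sizes.

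The promoters of a few genes that changed are shown first, because the results fall into an amino acid response, a ribosome assembly and a red cell group whose textbook regulators read known letters. ATF4 pairs with CEBP factors on a composite element, MYC and its relatives read the E-box, and GATA factors read the letters that give them their name. Sequences are from RefSeq on GRCh38.p14, run 5′ to 3′ along the gene, and span 200 bases before to 30 bases after the annotated start of the gene. Capitals mark a match to the motif named for that set on either strand, and positions are counted from the annotated start. The genes were chosen among called genes that hold the motif in a wider window of 300 bases, and not all chosen genes are shown. The sets therefore do not show how common a motif is. SLC3A2 and MYBBP1A, chosen in the same way, had no match in the shorter window and are left out. The first set holds the ATF4 composite letters TGATGNAA in SLC7A1 (chr13:29595659-29595888, minus strand, match from 8 bases after the start), SLC38A1 (chr12:46266487-46266716, minus strand, from 4 before) and ATF3 (chr1:212565207-212565436, plus strand, from 191 before).
SLC7A1: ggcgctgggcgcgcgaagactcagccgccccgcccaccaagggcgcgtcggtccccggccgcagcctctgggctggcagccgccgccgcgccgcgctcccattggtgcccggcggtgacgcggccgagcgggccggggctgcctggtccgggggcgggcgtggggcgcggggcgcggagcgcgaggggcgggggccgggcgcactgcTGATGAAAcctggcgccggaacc
SLC38A1: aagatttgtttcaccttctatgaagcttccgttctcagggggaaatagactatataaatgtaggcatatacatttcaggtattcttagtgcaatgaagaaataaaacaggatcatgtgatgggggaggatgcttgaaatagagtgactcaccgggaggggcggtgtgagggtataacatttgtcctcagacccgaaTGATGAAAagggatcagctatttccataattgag
ATF3: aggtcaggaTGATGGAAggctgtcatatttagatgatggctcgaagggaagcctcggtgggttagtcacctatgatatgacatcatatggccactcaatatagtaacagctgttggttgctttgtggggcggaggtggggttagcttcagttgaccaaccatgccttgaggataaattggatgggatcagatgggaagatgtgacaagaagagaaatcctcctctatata

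The second set holds the E-box letters CACGTG in genes of ribosome assembly, RRP9 (chr3:51941875-51942104, minus strand, from 5 before the start) and MRTO4 (chr1:19251605-19251834, plus strand, from 15 after it).
RRP9: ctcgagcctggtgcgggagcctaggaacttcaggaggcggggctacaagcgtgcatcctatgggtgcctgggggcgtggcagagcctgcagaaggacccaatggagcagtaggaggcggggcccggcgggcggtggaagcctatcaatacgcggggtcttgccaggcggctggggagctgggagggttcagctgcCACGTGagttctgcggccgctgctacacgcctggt
MRTO4: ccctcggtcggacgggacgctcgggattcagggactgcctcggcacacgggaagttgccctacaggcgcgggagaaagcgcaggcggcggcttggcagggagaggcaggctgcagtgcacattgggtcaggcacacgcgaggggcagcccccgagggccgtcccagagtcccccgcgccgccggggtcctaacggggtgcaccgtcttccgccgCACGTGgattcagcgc

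The third set holds the GATA letters AGATAA, read as TTATCT on the other strand, in genes of haem synthesis, ALAS2 (chrX:55030948-55031177, minus strand, from 127 before the start) and CPOX (chr3:98593582-98593811, minus strand, from 125 before), and in the red cell membrane gene EPB42 (chr15:43220989-43221218, minus strand, from 61 before).
ALAS2: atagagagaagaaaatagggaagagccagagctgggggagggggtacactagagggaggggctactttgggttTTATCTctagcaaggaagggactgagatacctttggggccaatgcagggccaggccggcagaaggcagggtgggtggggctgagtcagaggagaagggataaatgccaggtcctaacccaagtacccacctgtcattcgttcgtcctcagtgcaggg
CPOX: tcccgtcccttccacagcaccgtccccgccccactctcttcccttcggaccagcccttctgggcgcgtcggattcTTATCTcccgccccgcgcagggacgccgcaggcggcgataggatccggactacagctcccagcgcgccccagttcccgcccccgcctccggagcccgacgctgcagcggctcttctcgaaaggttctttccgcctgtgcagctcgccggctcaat
EPB42: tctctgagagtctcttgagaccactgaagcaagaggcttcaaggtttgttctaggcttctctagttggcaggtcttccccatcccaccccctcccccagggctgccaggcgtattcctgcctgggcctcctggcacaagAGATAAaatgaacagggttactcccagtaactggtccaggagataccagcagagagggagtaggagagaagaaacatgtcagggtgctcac

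Promoters of 300 bases, 250 before and 50 after the start, were found for 8252 of the 10208 genes and were searched on both strands for 5 motifs, none of which contains another. CACGTG was in 17.8% of the promoters of genes called lower, 8.13% of those of genes called higher, 10.8% of those of all genes tested and 7.43% of all 27305 RefSeq promoters. It was in 11 of 30 promoters of ribosome biogenesis factors (36.7%). TGATGNAA was in 3.43% of promoters of genes called lower, 1.59% of those called higher, 1.62% of genes tested and 3.67% of all promoters. It was in 3 of 11 promoters of amino acid transporters (27.3%) and 1 of 13 of the ATF4 regulators (7.69%). AGATAA was in 7.74% of promoters of genes called higher, 5.95% of those called lower, 4.96% of genes tested and 10.5% of all promoters. The ETS letters CCGGAAG were in 12.5% of promoters of genes called higher, 20.8% of those called lower, 20.5% of genes tested and 10.7% of all promoters. The forkhead letters GTAAACA were in 5 of 18 promoters of FOXO targets and quiescence genes (27.8%), 2.33% of genes tested and 3.41% of all promoters. These matches describe letters in a window and say nothing of binding.

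Genes of the amino acid response were lower at 8 h. Of 14 measured regulators and effectors of the ATF4 response, 10 fell (71.4%, against 5.3% of all genes) and none rose. The median log2 difference was -0.96 (0.02 over all genes). ATF4 itself stood at 13.28, 13.11 and 13.31 (log2 level, arrays A, B and C) at 4 h and at 12.13, 12.17 and 12.22 at 8 h. Every 8 h array lay below every 4 h array, and ATF4 fell by 1.06 ± 0.11 (adjusted p = 0.00013). CEBPG, a partner with which ATF4 binds DNA, stood at 9.43, 9.48 and 9.49 and then at 8.23, 7.97 and 7.98, without overlap (a fall of 2.65-fold, adjusted p = 3.4e-05). DDIT4, an inhibitor of the growth kinase mTORC1 also known as REDD1, went from 11.22, 11.32 and 11.44 to 9.56, 9.20 and 9.32, which was a 3.9-fold fall (log2 -1.97 ± 0.20, adjusted p = 0.00012). SESN2, which senses leucine for the same kinase, went from 6.71, 7.21 and 7.54 to 5.67, 5.86 and 5.32 (log2 -1.54 ± 0.24, adjusted p = 0.0022). The 4 h arrays spread more for SESN2 than for the other genes whose 3 arrays are given here. STC2, a secreted glycoprotein induced by stress, went from 7.04, 6.66 and 6.98 to 5.40, 5.34 and 5.48 (log2 -1.49 ± 0.14, adjusted p = 7.3e-05). ATF3, a stress factor downstream of ATF4, went from 6.36, 6.37 and 6.96 to 5.43, 4.98 and 5.24 (log2 -1.35 ± 0.20, adjusted p = 0.0015) and was detected on 1 of the 3 arrays at 8 h. ULBP1, a ligand for the NKG2D receptor of natural killer cells, went from 7.30, 7.12 and 7.19 to 6.24, 6.11 and 6.17 (log2 -1.03 ± 0.15, adjusted p = 0.0011). None of these 7 genes had overlapping arrays, as was so for 30.2% of all genes. CEBPG, DDIT4, SESN2 and STC2 are among the 12 largest falls, which were picked among genes without overlap. CEBPB also fell (log2 -0.89), as did DDIT3, which encodes the stress factor CHOP (-0.51 ± 0.12, adjusted p = 0.018), and TRIB3, a pseudokinase that restrains ATF4 (-0.42 ± 0.12, adjusted p = 0.037). The calls of DDIT3 and TRIB3 were lost when single arrays were left out, with adjusted p up to 0.073 for DDIT3 and 0.13 for TRIB3. JDP2 (-0.51), VEGFA (-0.22), ATF5 (0.07) and PPP1R15A (0.33) did not pass, although without array B of the 4 h group 1 member of the list was called higher.

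The genes of this group did not move in one direction over the study. Their mean log2 level was 8.79 to 9.06 on the 4 h arrays, 8.06 to 8.10 on the 8 h arrays, 8.19 to 8.23 on the DMSO arrays and 8.57 to 8.63 on the 24 h dasatinib arrays. The 8 h arrays were thus the lowest of the 12, and the 4 h arrays the highest. Of the 10 falling genes, 6 were higher at 24 h of dasatinib than at 24 h of DMSO, and 2 were lower. That comparison takes its means from other arrays, but both use a common estimate of each gene's spread. Of all genes called lower at 8 h, 6.28% were higher there and 78.6% lower. ATF4 was higher there by 0.86 (log2, adjusted p = 2.7e-05), SESN2 by 1.08 (adjusted p = 0.0025), ULBP1 by 2.34 (adjusted p = 1.1e-07), DDIT3 by 1.04 (adjusted p = 1.6e-05) and CEBPG by 0.35 (adjusted p = 0.026).

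Amino acid transporters went the same way at 8 h. Of 11 measured, 5 fell (45.5%, against 5.3% of all genes) and none rose, with a median log2 difference of -0.41. SLC7A1, which carries arginine and lysine into the cell, stood at 10.14, 10.08 and 10.13 at 4 h and at 8.89, 8.70 and 8.89 at 8 h (log2 -1.29 ± 0.10, adjusted p = 1.7e-05). SLC7A5, the leucine importer LAT1, went from 11.62, 11.65 and 11.69 to 10.35, 10.38 and 10.52 (log2 -1.24 ± 0.10, adjusted p = 1.7e-05). SLC1A5, a glutamine importer, went from 10.24, 10.17 and 10.13 to 8.86, 9.27 and 8.98 (log2 -1.15 ± 0.11, adjusted p = 0.00012). For all 3 every 8 h array was below every 4 h array. SLC38A1, another glutamine importer, fell by 0.87 ± 0.12 (adjusted p = 0.001), and SLC3A2, the heavy chain that pairs with SLC7A5, fell by 0.73. SLC38A2 (-0.41), SLC36A1 (-0.20), SLC38A5 (-0.08), SLC43A1 (0.01), SLC6A9 (0.05) and SLC1A4 (0.17) did not pass. With each array left out in turn, 5 or 6 transporters were called lower.

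Of 13 genes of serine, cysteine and asparagine synthesis, 3 fell (23.1%, against 5.3% of all genes) and none rose, with a median of -0.08. MTHFD2, a mitochondrial folate enzyme, went from 10.71, 10.55 and 10.64 to 9.52, 9.57 and 9.66 without overlap (log2 -1.05 ± 0.11, adjusted p = 0.00013). PSPH (-0.63 ± 0.17, adjusted p = 0.037) and MTHFD1L (-0.41 ± 0.10, adjusted p = 0.02) also fell, and both calls were lost when array A of either time was dropped, so that 1 gene was left in the lowest case. ASNS, asparagine synthetase, stood at 12.18, 12.14 and 12.20 at 4 h and at 11.99, 12.22 and 12.48 at 8 h, with overlap (log2 0.06 ± 0.12, adjusted p = 0.82). Of 18 aminoacyl-tRNA synthetases, 2 fell (11.1%, against 5.3% of all genes) and none rose. TARS1 fell by 0.47 ± 0.09 and FARSA by 0.46 ± 0.12. FARSA lost its call when array A or C at 4 h, or array A or B at 8 h, was dropped. EIF1, which helps the ribosome choose the start codon, fell by 0.61 ± 0.08 (adjusted p = 0.00076).

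**Figure D2:**
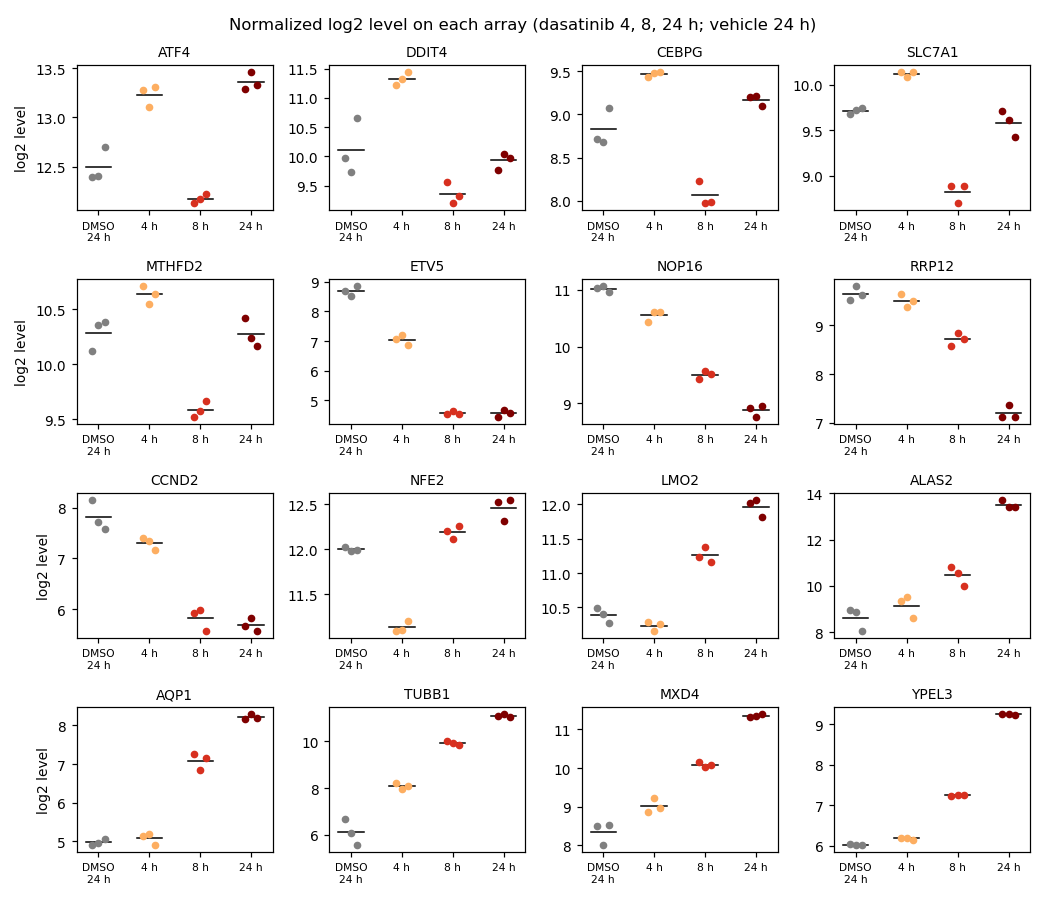
Points are the normalized log2 levels of 16 genes on each of the 12 arrays, 3 in each group, with a bar at the group mean; the y axes differ between genes. For ATF4, DDIT4, CEBPG, SLC7A1 and MTHFD2 the 8 h arrays are the lowest of the study, for ETV5 and CCND2 the 8 h and 24 h arrays lie together, and for AQP1, TUBB1, MXD4 and YPEL3 the 8 h arrays lie between those of 4 h and 24 h.

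Genes of ribosome assembly were lower at 8 h. Of 37 measured ribosome biogenesis factors, 24 fell (64.9%, against 5.3% of all genes) and none rose, with a median of -0.46. MYBBP1A, a nucleolar protein of ribosomal RNA production, went from 6.86, 6.88 and 6.77 to 5.85, 5.33 and 5.18 (log2 -1.38 ± 0.19, adjusted p = 0.00091). It was detected on 2 of the 3 arrays at 8 h. NOP16, a nucleolar assembly factor of the large subunit, went from 10.44, 10.61 and 10.61 to 9.43, 9.56 and 9.52 (log2 -1.05 ± 0.09, adjusted p = 6.2e-05). RRP9, a component of the particle that processes ribosomal RNA for the small subunit, went from 7.26, 7.28 and 7.12 to 5.58, 6.01 and 6.65 (log2 -1.15 ± 0.21, adjusted p = 0.0049). The times did not overlap for any of these, though RRP9 spread over more than 1 log2 unit among the 8 h arrays. RRP1B fell by 0.99 ± 0.14 (adjusted p = 0.0012), and NOLC1, DDX10, DDX21, RRP12, MRTO4, LYAR and GRWD1 fell by 0.73 to 0.86. Of the 13 members not called, FBL (-0.01), NPM3 (0.01), UTP15 (0.02) and RCL1 (0.14) were nearest to or above 0. With single arrays left out, 18 to 21 members were called lower, and 15 under median scaling. All 24 were also lower at 24 h of dasatinib than at 24 h of DMSO. So were 78.6% of all genes called lower at 8 h, and 27.1% of all genes tested.

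Subunits of the polymerases that make ribosomal and transfer RNA shared in this, with 5 of 14 lower (35.7%, against 5.3% of all genes). None was higher, and the median was -0.34. POLR3G, a subunit of RNA polymerase III that is abundant in stem and tumour cells, went from 9.20, 9.19 and 9.002 to 7.91, 8.23 and 7.85 without overlap (log2 -1.13 ± 0.12, adjusted p = 0.0002). POLR3D fell by 0.76 ± 0.14, POLR3K by 0.51 ± 0.11 and POLR3E by 0.49 ± 0.11 (adjusted p = 0.0059, 0.011 and 0.013), and the call of POLR3E was lost without array A of the 8 h group and that of POLR3D in the authors' deposited table. Under median scaling 2 of the 14 were called. None of 27 cytosolic ribosomal proteins was called (against 11.3% of all genes), and their median was 0.06, which became -0.03 under median scaling. Many were very bright, such as RPL11 at means of 14.44 and 14.40, and whether signals so bright can show a change was not tested. Nucleotide synthesis had 5 of 19 genes lower and 1 higher (against 5.3% and 5.98% of all genes). IMPDH1, which commits purines to guanine nucleotides, fell by 0.71 ± 0.09 (adjusted p = 0.00065), and CTPS1, which makes cytidine triphosphate, by 0.65 ± 0.10 (adjusted p = 0.0017). CTPS2, its paralog, rose by 0.41 ± 0.10 (adjusted p = 0.024), a call lost when array C of the 4 h group, or array A or B of the 8 h group, was dropped. With single arrays left out, 2 or 3 of the nucleotide genes were called lower.

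MYC, whose product drives these growth genes, was measured at 10.67, 10.46 and 10.82 at 4 h and at 11.08, 10.92 and 11.19 at 8 h. All 8 h values were above all 4 h values, but the gene did not pass (log2 0.41 ± 0.13, adjusted p = 0.066, and 0.064 to 0.2 with single arrays left out). It passed without background correction, with an offset of 50, in the authors' deposited values, with the replicate block and with a variance trend. Under median scaling it was far from passing (log2 0.25, adjusted p = 0.61). Its level was 12.43 in the DMSO group and 11.39 at 24 h of dasatinib. Of 9 genes of the MYC, MAX and MXD network, 2 rose and 1 fell (33.3% called, against 11.3% of all genes). The MXD proteins compete with MYC for its partner MAX. MXD4 went from 8.85, 9.22 and 8.97 to 10.15, 10.03 and 10.09 (log2 1.08 ± 0.14, adjusted p = 0.0007), and MXD3 from 6.84, 6.76 and 6.88 to 7.63, 7.86 and 7.72 (log2 0.91 ± 0.12, adjusted p = 0.00061). MNT, which also pairs with MAX, fell by 0.67 ± 0.15 (adjusted p = 0.014), and MXD1 differed by 0.02 ± 0.18 without passing (adjusted p = 0.97).

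**Figure D3:**
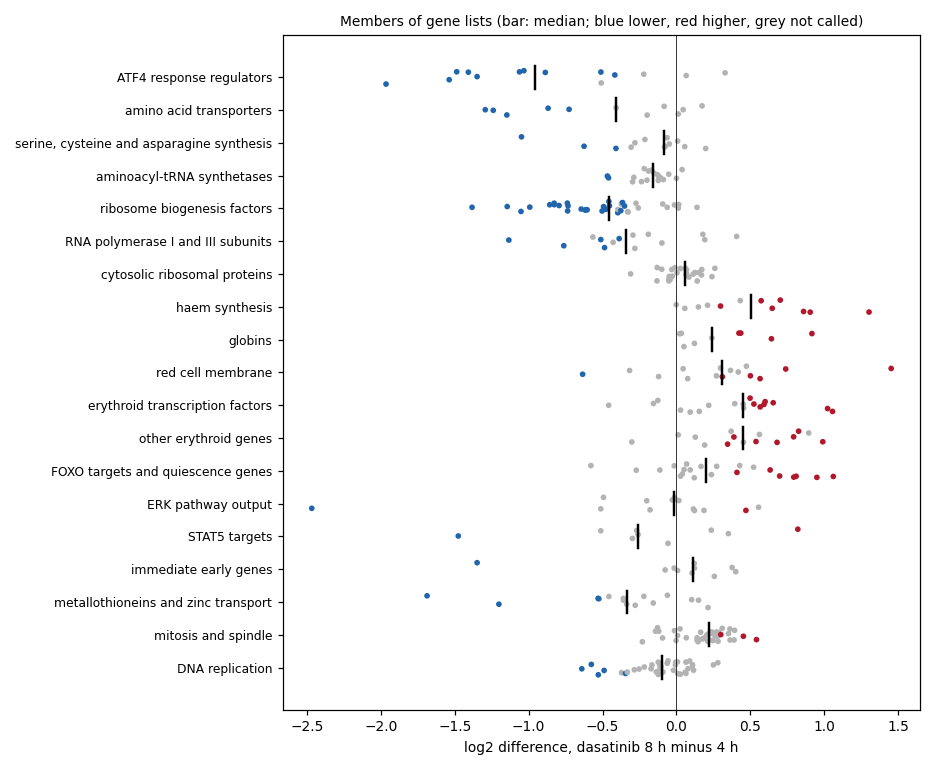
Each point is a member of a gene list, placed by its log2 difference of 8 h minus 4 h; black bars are list medians, and blue and red points are genes called lower and higher. The bars of the ATF4 regulators (-0.96) and ribosome biogenesis factors (-0.46) lie to the left, and those of haem synthesis (0.50) and erythroid transcription factors (0.45) to the right, while cytosolic ribosomal proteins (0.06) and ERK pathway output (-0.02) lie near 0.

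Genes of red cell development were higher at 8 h. Of 12 measured genes of haem synthesis, 7 rose (against 5.98% of all genes) and none fell, with a median of 0.50. ALAS2, the first enzyme of the chain in red cells, stood at 9.35, 9.51 and 8.61 at 4 h and at 10.81, 10.57 and 9.99 at 8 h (log2 1.30 ± 0.28, adjusted p = 0.013). Array C was the lowest at both times, the times did not overlap, and with array A of the 8 h group left out the call was lost (adjusted p = 0.053). SLC25A37, the mitoferrin that takes iron into mitochondria, went from 8.89, 8.99 and 9.17 to 9.94, 10.03 and 9.78 (log2 0.91 ± 0.12, adjusted p = 0.00063). ALAD, the second enzyme, went from 7.43, 7.61 and 7.50 to 8.27, 8.43 and 8.43 (log2 0.86 ± 0.14, adjusted p = 0.0021), a call lost when all its probes were averaged. PPOX rose by 0.70 ± 0.13 (adjusted p = 0.0053), and FECH, which inserts the iron, by 0.65, CPOX by 0.57 and TMEM14C by 0.30. ALAS1, the form of the first enzyme used outside red cells, differed by -0.00 and UROD by 0.06, and neither passed. The list had 4 to 7 members called higher with single arrays left out, the 4 without array A of the 8 h group, and 3 under median scaling.

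Of 18 erythroid transcription factors, 8 rose (against 5.98% of all genes) and none fell. The median was 0.45, or 0.42 with FLI1 at its bound. NFE2, which activates globin genes, went from 11.09, 11.11 and 11.21 to 12.20, 12.12 and 12.26 (log2 1.06 ± 0.09, adjusted p = 5.8e-05). LMO2, the bridge of the GATA1 and TAL1 complex, went from 10.29, 10.16 and 10.26 to 11.23, 11.38 and 11.16 (log2 1.02 ± 0.11, adjusted p = 0.00015). KLF1 went from 8.85, 8.98 and 9.03 to 9.61, 9.52 and 9.53 (log2 0.60 ± 0.10, adjusted p = 0.0029, but 0.2 under median scaling). None of these overlapped between times. ZFPM1, the GATA1 cofactor also called FOG1, rose by 0.66 ± 0.14 (adjusted p = 0.012, lost when array B at 8 h was dropped), and LYL1 (0.57), GFI1B (0.52) and TAL1 (0.50) were called as well. FLI1, better known from megakaryocytes, was not detected at 4 h and was at least 1.02-fold higher at 8 h (adjusted p = 0.0056). GATA1 stood at 8.91, 9.27 and 9.23 at 4 h and at 9.28, 9.34 and 9.46 at 8 h and did not pass (log2 0.22 ± 0.12, adjusted p = 0.26). GATA2 differed by 0.03 ± 0.19, also without passing, and SPI1, which opposes GATA1, by -0.46. With single arrays left out, 7 to 9 of these factors were called higher, and 2 under median scaling. The levels of NFE2 were not in the order of time in the drug: it stood at 11.99 to 12.02 on the DMSO arrays, and its means were 11.14 at 4 h, 12.19 at 8 h and 12.46 at 24 h.

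Of 9 globin genes, 4 rose (44.4%, against 5.98% of all genes) and none fell (median 0.24). HBD, the delta globin, went from 9.31, 9.28 and 9.24 to 9.96, 9.90 and 9.90 (log2 0.64 ± 0.10, adjusted p = 0.0021). HBZ, the embryonic zeta globin, went from 13.54, 13.54 and 12.95 to 14.36, 14.35 and 14.07 (log2 0.92 ± 0.21, adjusted p = 0.017). HBE1, the embryonic epsilon globin, rose by 0.44 ± 0.10 (adjusted p = 0.015) and HBA1 by 0.42 ± 0.10 (adjusted p = 0.022). HBG1 was among the brightest genes, at 14.27 to 14.45 on the 6 arrays, and differed by 0.03 ± 0.09 (adjusted p = 0.85). HBG2 and HBA2 were similarly bright, and whether such signals can show a rise was not tested. The near-identical pairs HBA1 with HBA2 (0.02) and HBG1 with HBG2 (0.12) may share signal on the array, so the split within a pair is uncertain. The 4 calls fell to 1 in the lowest case: HBZ lost its call without array C of the 4 h group or array A or B of the 8 h group, HBE1 without array A of the 8 h group, and HBA1 without array C of the 4 h group or any 1 of the 8 h arrays. Under median scaling 1 globin was called, and HBD, HBE1 and HBA1 lost their calls.

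Among 15 genes of the red cell membrane, 5 rose and 1 fell (against 5.98% and 5.3% of all genes, median 0.31). EPB42, which anchors the band 3 anion exchanger, was not detected on any 4 h array (4.86 to 5.18) and reached 6.60, 6.92 and 5.79 at 8 h, at least 2.20-fold higher (adjusted p = 0.0021). TMOD1, which caps actin in the membrane skeleton, rose by 0.57 ± 0.11 (adjusted p = 0.0058), and SPTB, beta spectrin, by 0.50. STOM, stomatin, fell by 0.63 ± 0.14 (adjusted p = 0.013), a call lost without array A of the 8 h group. Leaving out any 1 of the 6 arrays brought the 5 rises to 2 or 3. Of 15 other erythroid genes, 7 rose (against 5.98% of all genes) and none fell (median 0.45). SELENBP1, a selenium-binding protein abundant in red cells, went from 8.40, 8.47 and 8.38 to 9.23, 9.19 and 9.21 (log2 0.79 ± 0.15, adjusted p = 0.0061). EPOR, the erythropoietin receptor, rose by 0.54 ± 0.12 (adjusted p = 0.015, up to 0.061 with single arrays left out). Its call was lost without array B at 4 h or array A or B at 8 h, and under median scaling (adjusted p = 0.31). CA1, carbonic anhydrase of red cells, rose by 0.99 ± 0.29 with overlapping arrays (adjusted p = 0.049, up to 0.17). That list had 2 to 8 calls with single arrays left out, and fell by over 1.5 times when array C at 4 h, or array A or B at 8 h, was dropped. AHSP (0.90), the chaperone of alpha globin, did not pass, and SLC4A1, the band 3 protein, was not detected at either time. SLC2A1, the main glucose importer of red cells, rose by 0.59 ± 0.11 (adjusted p = 0.0044), while SLC2A3, its relative, fell by 0.55 ± 0.11 (adjusted p = 0.0082).

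**Figure D4:**
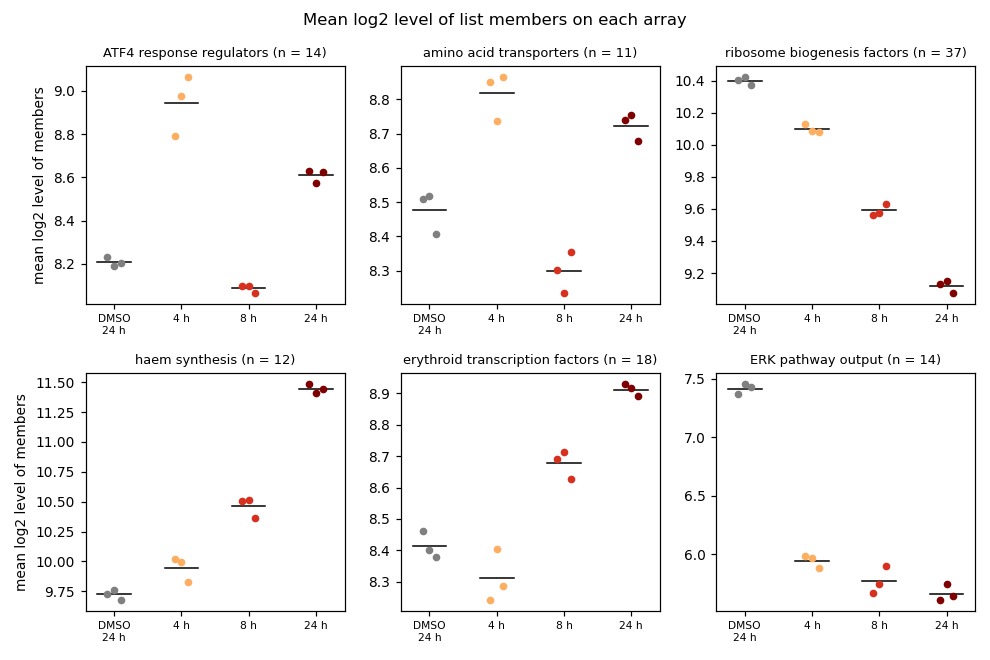
Points are the mean log2 level of the members of 6 gene lists on each of the 12 arrays, with a bar at the group mean; n is the number of members measured and the y axes differ. The ATF4 regulators are at 8.06 to 8.10 at 8 h, below all other arrays, the ribosome biogenesis factors step down from DMSO to 4, 8 and 24 h, haem synthesis steps up, and ERK pathway output is at 5.67 to 5.98 at both 4 h and 8 h.

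Of 14 ERK output genes, 1 rose and 1 fell between 4 h and 8 h (14.3%, against 11.3% of all genes), and the median was -0.02. Their mean log2 level was 7.37 to 7.46 on the DMSO arrays, 5.88 to 5.98 on the 4 h arrays, 5.67 to 5.90 on the 8 h arrays and 5.61 to 5.74 on the 24 h arrays. The 4 h and 8 h arrays overlapped, and both lay far under the DMSO arrays. SPRY4, a feedback inhibitor of this cascade, and CCND1 were not detected on any array at either time. FOSL1 and SPRY2 were detected on 1 of the 3 arrays at each time. Such members could pass the detection filter only through another group, so for them the gap to DMSO was partly fixed in advance. Signals so near the background also cannot show a further fall between 4 h and 8 h. DUSP6, a phosphatase of ERK, was detected on 2 of the 3 arrays at 4 h and on none at 8 h, and it did not pass (adjusted p = 0.61). ETV5, an ETS factor that ERK signalling maintains, stood at 7.05, 7.21 and 6.86 at 4 h and was not detected on any 8 h array (4.54, 4.64 and 4.54), at least 3.48-fold lower (adjusted p = 9.1e-07). Its level was 8.69 in the DMSO group and 4.56 at 24 h. KCNN4, a potassium channel, rose by 0.47 ± 0.11 (adjusted p = 0.018). Its call was lost without array B at 4 h or array A at 8 h, under median scaling (adjusted p = 0.36) and in the authors' deposited table.

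Of 9 STAT5 targets, 1 rose and 1 fell (22.2% called, against 11.3% of all genes, median -0.26). CCND2, cyclin D2, went from 7.40, 7.35 and 7.17 to 5.92, 5.99 and 5.57 (log2 -1.48 ± 0.16, adjusted p = 0.00017). ID1, which blocks DNA binding by helix-loop-helix partners and which BMP signals also induce, went from 5.25, 5.65 and 5.66 to 6.37, 6.44 and 6.22 (log2 0.82 ± 0.13, adjusted p = 0.0025). Neither gene's times overlapped, but CCND2 is among the 12 largest falls, which were picked among genes without overlap. ID1 was detected on 2 of the 3 arrays at 4 h and did not pass in the authors' deposited table. PIM1 and SOCS2, classical STAT5 targets, differed by 0.24 ± 0.14 and -0.30 ± 0.12 and did not pass (adjusted p = 0.32 and 0.12), and CISH, another, was not detected at either time. ID1 rose between 4 h and 8 h but stood at 8.95 in the DMSO group and 5.88 at 24 h of dasatinib, and SMAD6, another BMP target, rose by 0.87 ± 0.11 (adjusted p = 0.00058). Of 10 immediate early genes, ATF3 alone was called (10%, against 11.3% of all genes), and it fell. Without array C of the 8 h group, 1 was called higher. EGR1 differed by 0.26 ± 0.19 and did not pass (adjusted p = 0.42). Of 12 ABL, BCR and SRC family kinases, receptors included, 2 rose and 2 fell (against 5.98% and 5.3% of all genes). LYN fell by 0.58 ± 0.09 (adjusted p = 0.0018) and SRC by 0.82 ± 0.18 (adjusted p = 0.014, lost without array A of the 8 h group), while DDR1 rose by 0.75 ± 0.14 (adjusted p = 0.0052) and FYN by 0.77 ± 0.18 (adjusted p = 0.016, lost when array B or C at 4 h or array B at 8 h was dropped). ABL1 (0.00 ± 0.11) and BCR (-0.04 ± 0.22) did not pass, and their probes cannot separate the fusion transcript from the normal genes.

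Genes of cell cycle exit and FOXO targets were higher where they changed. Of 22 measured, 7 rose (against 5.98% of all genes) and none fell (median 0.20). YPEL3, which slows growth, went from 6.19, 6.20 and 6.15 to 7.23, 7.25 and 7.25 (log2 1.06 ± 0.08, adjusted p = 1.7e-05). YPEL5 rose by 0.95 ± 0.13 (adjusted p = 0.001), PINK1, a kinase that marks damaged mitochondria, by 0.81 ± 0.14 (adjusted p = 0.0043) and FOXO4 by 0.79 ± 0.13 (adjusted p = 0.0025). GADD45A (0.70), CCNG2 (0.63) and SESN1 (0.41) rose as well. With array B of the 8 h group left out, 1 member of this list was called lower. All 7 were also higher at 24 h of dasatinib than of DMSO. So were 81.6% of all genes called higher at 8 h, and 26.9% of all genes tested. CDKN1C, the cell cycle inhibitor p57, went from 7.94, 8.04 and 8.91 to 9.22, 9.36 and 9.38 (log2 1.02 ± 0.22, adjusted p = 0.012), with array C of the 4 h group well above the other two. CDKN1B, the related p27, did not pass (0.11 ± 0.12, adjusted p = 0.6), nor did BCL2L11, the cell death gene BIM (0.18 ± 0.12, adjusted p = 0.37). Of 38 genes of mitosis, 3 rose (7.89%, against 5.98% of all genes; median 0.22), with NUSAP1 at 0.54 ± 0.09 (adjusted p = 0.0036), and of 38 genes of DNA replication, 5 fell (13.2%, against 5.3%; median -0.10), with UNG at -0.58 ± 0.09 (adjusted p = 0.002). Leaving out any 1 array brought the replication count to 1 to 3, and none of the mitosis genes was called under median scaling.

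The 12 genes ranked first among the rises by fitted difference joined red cell genes to genes of other roles; differences against an undetected level have no measured size. AQP1, a water channel of the red cell membrane, was not detected at 4 h (5.13, 5.19 and 4.90) and stood at 7.26, 6.85 and 7.15 at 8 h, at least 3.46-fold higher (adjusted p = 5.4e-06). TUBB1, a tubulin of platelets, went from 8.24, 7.95 and 8.10 to 10.03, 9.92 and 9.85 (log2 1.84 ± 0.21, adjusted p = 0.00029). FGFR3, a fibroblast growth factor receptor, went from 8.85, 8.99 and 9.12 to 10.48, 10.46 and 10.47 (log2 1.49 ± 0.11, adjusted p = 1.7e-05). These 12 genes were picked among called genes whose times did not overlap, so that gap was fixed by the choice. Of the 7 measured megakaryocyte and platelet genes TUBB1 alone was called (against 11.3% of all genes), and 2 were when array C at 8 h was dropped. MLXIPL, the glucose-sensing factor ChREBP, rose by 1.59 ± 0.21 (adjusted p = 0.00063), ASCL2, a helix-loop-helix factor, by 1.52 ± 0.15 (adjusted p = 0.00012) and GLRX, glutaredoxin, by 1.48 ± 0.27 (adjusted p = 0.0054). FAXDC2 (1.69), SLC45A3 (1.58), ZNF467 (1.56) and GATA5 (1.42) were the others, with ANO1, a chloride channel not detected at 4 h, at least 1.73-fold higher.

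Beside ETV5, DDIT4, SESN2, STC2, CCND2, CEBPG and MYBBP1A, the 12 genes ranked first among the falls by fitted difference held 5 more genes. HJV, a BMP co-receptor known for its part in liver iron sensing, went from 7.12, 7.04 and 7.39 to 5.52, 5.15 and 5.52 (log2 -1.79 ± 0.13, adjusted p = 1.7e-05). SLC39A10, a zinc importer, went from 8.96, 8.89 and 8.72 to 7.12, 7.21 and 7.18 (log2 -1.69 ± 0.12, adjusted p = 1.7e-05). PTPN7, a phosphatase of blood cells that acts on ERK, went from 7.18, 7.60 and 7.92 to 5.76, 5.92 and 6.43 (log2 -1.53 ± 0.22, adjusted p = 0.0011). The 12 falls too were picked among called genes whose times did not overlap, so that gap was fixed by the choice. CCDC26, a long non-coding RNA, fell by 1.65 ± 0.17 (adjusted p = 0.00017), and MYEOV was at least 1.80-fold lower, being undetected at 8 h. SLC39A14, another zinc and iron importer, fell by 1.20 ± 0.11 (adjusted p = 6.2e-05). In all, 4 of 15 genes of zinc handling fell (against 5.3% of all genes). In the lowest case 2 were left, among fits without array C at 4 h or array A or B at 8 h. Among chaperones of the endoplasmic reticulum, 3 of 18 fell (against 5.3% of all genes). They included XBP1, a stress factor (-0.83 ± 0.12, adjusted p = 0.001), and HSPA5, the chaperone BiP (-0.74 ± 0.20, adjusted p = 0.032). HSPA5 lost its call when any 1 of the 4 h arrays, or array A or B at 8 h, was dropped.

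The differences were set beside the comparison of 24 h of dasatinib with 24 h of DMSO, which uses the other 6 arrays. There, 5511 genes (54%) were called, 2746 higher and 2765 lower. Of the 610 genes higher at 8 h than at 4 h, 498 (81.6%) were higher at 24 h and 17 (2.79%) lower, against 26.9% and 27.1% of all genes. Of the 541 lower genes, 425 (78.6%) were lower at 24 h and 34 (6.28%) higher. In the other direction, the shared genes made up 18.1% of those higher and 15.4% of those lower at 24 h. Across genes, which are not independent replicates, the 2 differences had a Pearson r of 0.55 and a Spearman rho of 0.494. Over the called genes, which were picked by their difference between 4 h and 8 h, these were 0.794 and 0.781.

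**Figure D5:**
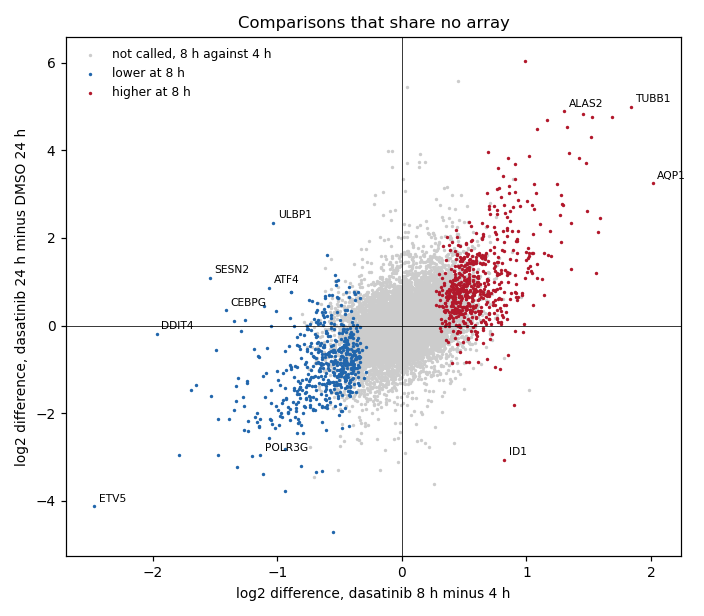
Each point is 1 of 10208 genes, with the log2 difference of 8 h minus 4 h of dasatinib on the x axis and that of 24 h of dasatinib minus 24 h of DMSO on the y axis. Of the red points, called higher at 8 h, 498 are called higher on the y axis too; SESN2, ULBP1, ATF4 and CEBPG stand among the 34 genes called lower on x and higher on y, and ID1 among the 17 of the opposite kind.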

How the data were processed

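Total RNA of K562 cells was labelled as biotinylated cRNA and hybridised to Illumina BeadChips, per the labels' protocols. The deposited probe values are intensity signals that were not normalized between arrays, each with a detection p-value per the file headers. The authors also deposited a value table on a log2 scale; the sources used here do not say how it was made, and it served as an alternative. Array letters A, B and C matched replicates 1, 2 and 3 in that table. Signal columns headed BMS were taken to be the dasatinib arrays.

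Signals were normalized with neqc of limma 3.58.1 in R 4.3.3 (negative controls inferred from the detection p-values, offset 16, quantile, log2). Probes were kept that had, in some group, a detection p under 0.05 on each of its 3 arrays. Gene names came from the platform annotation (30108 of 47314 probes name 1 gene, 8 several, 17198 none), and the probe with the highest mean stood for each of the 2604 genes with several. This gave 10208 genes. limma fitted 1 mean per group to all 12 arrays (8 residual degrees of freedom), and two-sided moderated p-values were adjusted by Benjamini-Hochberg over all genes. Genes undetected at one time are given as bounds, against the lowest detected signal of each array or the gene's own signal where that is higher. Standard errors rest on 3 arrays a group, and the number of arrays limits the precision.

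The comparison, the 49 gene lists and the named genes were chosen with earlier results of these data known. Genes to name were selected by rule, and not all of them are printed: the 12 largest fitted rises and 12 largest fitted falls among called genes without overlap, 4 called members of each list with the largest differences, a fixed set of genes, and 5 genes with the 8 h arrays above and 5 with them below all others. Other members were named after their values were seen. The code was tested on simulated data. Alternatives were other background corrections, offsets, scalings, filters and probe rules, the authors' table, the 6 arrays alone, a replicate block, a variance trend and leaving out each array.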

Additional observations from a re-analysis of the deposited data

How the results depend on the processing

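None of the 144 called genes that the naming rules select, not all of them printed, turned direction under any alternative run; 60 kept their call in all of them and 84 lost it in at least 1. The total of 1151 called genes was 384 with median scaling (126 higher, 258 lower), and the cause was not tested. There the adjusted p of KLF1 rose from 0.0029 to 0.2, while that of AQP1 fell from 5.4e-06 to 1.3e-08. The total was 733 with the 6 arrays alone (381 higher, 352 lower), where fewer arrays set the spread. Leaving out 1 array gave 691 to 916 genes, 356 to 507 of them higher and 335 to 409 lower, and 105 to 138 called members of the 49 lists against 167 in full and 71 with median scaling. The 2-fold counts of 110 (53 higher, 57 lower) were 15 (6 and 9) without background correction and 48 (22 and 26) with an offset of 50, settings that narrow the folds of dim probes. They were 9 (5 and 4) in the authors' deposited table, where the cause was not tested, and 32 genes were higher at 2-fold with median scaling. Medians of the ATF4, transporter, ribosome biogenesis, FOXO and red cell lists kept their sign in every setting, while those of ERK output, immediate early genes, the MYC network and cytosolic ribosomal proteins did not. With the replicate block 1229 genes were called (658 higher, 571 lower); same-lettered 4 h and 8 h arrays deviated together at r = 0.134, 0.007 and 0.122, each array correlating best with its own letter, which is a hint from the data and not a pairing in the design.

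Genes that were not called took the opposite sign in some settings, all with adjusted p of 0.57 or more. With median scaling these were CDKN1B (-0.0204), ABL1 (-0.1676), GATA2 (-0.0474), HBG1 (-0.0165) and ASNS (-0.1005), with the mean of all probes ASNS (-0.1108), with the 6 arrays alone ABL1 (-0.0013), and in the authors' deposited table BCR (0.0009). With 1 array left out, the log2 differences ranged from -0.0783 to 0.0911 for ABL1, -0.0709 to 0.1784 for ASNS, -0.3343 to 0.1722 for BCR, -0.121 to 0.0123 for CISH (not detected at either time), -0.0811 to 0.1845 for GATA2, -0.0063 to 0.0821 for HBG1 and -0.6085 to 0.001 for MT1X. Signal over background limits what dim genes can show: 57 called genes were undetected at one of the times and are bounds, and 1 was detected on no array at either. With the GATA letters TGATAA, the shares were 5.16% of promoters of genes called higher, 3.66% of those lower and 3.57% of genes tested.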

Other observations

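Some genes stood apart at 8 h from all other arrays. In 252 genes (2.47%) all 3 of the 8 h arrays lay above the other 9, and in 156 (1.53%) below; these genes were picked for that pattern and carry no test of it. ZNF467, a zinc finger protein, had means of 5.14 in the DMSO group and 6.33 at 24 h of dasatinib, and stood at 7.75, 7.86 and 8.19 at 8 h. EFNA1, an ephrin ligand, stood at 7.57, 7.73 and 7.60 at 8 h against means of 4.90 in DMSO and 6.62 at 24 h. MAP1A and RND2 followed with log2 rises of 0.85 and 0.98 from 4 h, and S100A3, undetected at 4 h, was at least 1.69-fold higher. RND2 lost its call when array B or C at 4 h, or array C at 8 h, was dropped. Lowest at 8 h were STC2, SLC39A10 and CEBPG, together with ZNF143, a transcription factor of promoters, at 6.54, 6.39 and 6.44 against 8.76 in DMSO and 7.29 at 24 h, and DIDO1 at 6.28, 6.10 and 5.70 against 6.96 and 7.41.

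Among the 34 genes that fell between 4 h and 8 h and were higher at 24 h of dasatinib than of DMSO were the histone genes H3C4 (-0.75 and then 0.58), H3C6 (-0.72 and 0.56), H2AC7 (-0.59 and 0.71) and H2BC21 (-0.54 and 1.14), picked after their values were seen; near-identical histone genes may share signal. Of 19 measured replication-dependent histone genes on the list, H3C4 and H2BC21 fell, 1 rose and 16 did not pass (15.8% called, against 11.3% of all genes). The gene that rose, H4C11 (0.63 ± 0.18, adjusted p = 0.039), lost its call when array A or B at 4 h, or array B or C at 8 h, was dropped. SLC30A1, a zinc exporter, fell by 0.53 and stood 1.02 higher at 24 h. In the opposite set of 17, CDC42EP2, detected on 1 of the 3 arrays at 4 h, rose by 0.90 and was lower by 1.82 at 24 h. GSK3A, undetected at 4 h, was at least 1.27-fold higher at 8 h (adjusted p = 0.0073) and differed by -0.68 at 24 h.

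Of 113 small nucleolar RNAs, 1 rose and 8 fell (7.96%, against 11.3% of all genes), with a median of -0.22, against a median of 0.02 for 9617 protein-coding genes. Of 207 long non-coding RNAs, 7 rose and 8 fell (7.25%, median -0.02), and of 30 microRNA genes, 2 fell (6.67%, median -0.12). Probes that name no single gene were tested apart, and of 4228 that passed the detection filter 58 rose and 69 fell (3%). Where a called gene had other passing probes, 322 of 355 of them (90.7%) had the same sign.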
